A study of Mus musculus with 36 samples.

Results

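Transcripts of 7 chemokine receptor genes (Ccr1, Ccr2, Ccrl2, Cx3cr1, Cxcr1, Cxcr2 and Cxcr4) were examined in alveolar macrophages (AΦ) and monocytes sorted from mouse lung. The genes were chosen by symbol, and all 7 were found among the 27562 genes with a value in FPKM (fragments mapped to a gene, scaled by transcript length and by library size). Young adult male C57BL/6J hosts carrying CD45.2 were lethally irradiated with the chest shielded, given busulfan and transplanted with marrow of B6.SJL-Ptprca Pepcb/BoyJ donors carrying CD45.1. This shared preparation was followed by filtered air (FA) or concentrated ambient particles (PM2.5, labelled PM) for 4-weeks or 32-weeks. The 36 libraries formed 12 groups of 3. CD45.2 AΦ are called tissue-resident (TR-AΦ; labels MF at 4-weeks and MF2 at 32-weeks), and CD45.1 AΦ are called bone marrow-derived (BM-AΦ; label MF1, 32-weeks). Monocytes were labelled Mono at 4-weeks and Mono1 or Mono2 at 32-weeks, and the numbers were read with the macrophage key (Mono1 as CD45.1, Mono2 as CD45.2), which the labels themselves do not spell out. In these chimeras the marrow was replaced, whereas cells in the shielded chest kept the host marker, so a CD45.2 monocyte at 32-weeks is a host cell that persisted or arose from surviving host marrow.

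Chemokine receptors are G protein-coupled receptors that steer leukocytes along gradients of small secreted chemokines. Monocytes leave the marrow through Ccr2, the receptor of Ccl2 and Ccl7, patrol vessels with Cx3cr1, the receptor of the membrane-bound chemokine Cx3cl1, and are held in marrow through Cxcr4, the receptor of Cxcl12. Ccr1 binds Ccl3, Ccl5, Ccl6 and Ccl9, and Cxcr2 responds to the neutrophil-attracting chemokines of the Cxcl1, Cxcl2 and Cxcl3 type. For CXCR1 the study names CXCL6 and CXCL8 as ligands. Ccrl2 binds chemerin without signalling in the usual way and presents it to neighbouring cells.

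The sorted cells were checked first against defining markers. Siglecf, the alveolar macrophage sialic acid receptor, ranged from 69.6 to 157 FPKM in the 18 AΦ libraries and from 0.179 to 8.99 FPKM in the 18 monocyte libraries. Ly6c2, a marker of classical monocytes, ranged from 127 to 516 FPKM in monocytes and from 0 to 16.5 FPKM in AΦ. Neither gene overlapped between the cell types, and neither did the sums of the 12 alveolar macrophage and 12 monocyte markers. Some single markers did overlap: Fabp4, Marco and Pparg of the first list and Fcgr4, Spn and Treml4 of the second. Fabp4 ranged from 14.6 to 88.2 FPKM in AΦ and from 1.38 to 42.9 FPKM in monocytes. Libraries nevertheless carried transcripts of other cells. The summed FPKM of 11 neutrophil markers was 418 and 1185 in the FA and PM monocyte libraries numbered 2 at 4-weeks against 33.6 to 141 in the other monocyte libraries. The defining marker Ly6g was 2.47 FPKM in that PM library, the one with the highest sum, and 0 in every other monocyte library. The summed FPKM of 6 interstitial macrophage markers was 105 to 2826 in monocytes and 20.1 to 492 in AΦ. The sum of the 12 alveolar macrophage markers in the file was 1726 FPKM in Mono2 PM replicate 1 and 291 to 948 FPKM in the other monocyte libraries. Such values are repeated beside the receptors they move with. In bulk libraries a smaller number of cells that carry a transcript and less of it per cell cannot be told apart. The study's methods name a nominal sequencing depth, but the file gives FPKM without read counts for any library, and 15171 to 18244 genes were above 0 per library.

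All members lie on 2 chromosomes. On chromosome 9 (mm10) the file placed Ccrl2 at chr9:111054486-111057519, Cx3cr1 at chr9:119894895-120068283, Ccr1 at chr9:123962126-123968692 and Ccr2 at chr9:124101950-124113557, with 133 kb between Ccr1 and Ccr2. On chromosome 1 it placed Cxcr2 at chr1:74153989-74161246, Cxcr1 at chr1:74191785-74194631, 30.5 kb away, and Cxcr4 at chr1:128588199-128592290. The file's Cx3cr1 interval spans 5 other genes (Wdr48, Gorasp1, Ttc21a, Csrnp1 and Xirp1), and the others overlap no gene in the file. Cxcr4 lies 9.47 Mb from Ptprc, the gene that encodes CD45 and differs between host and donor, so strain-linked sequence near Cxcr4 and cell origin cannot be told apart.

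The 250 bases before the start are shown for the 5 receptors with the largest changes between cell types or time points, since promoters bear on members that moved together. They are taken from RefSeq (GRCm38.p6, each read 5′ to 3′ toward the gene, 1 promoter found for each of the 7 members, the first listed where there were several). Capitals mark matches on either strand to GAGGAA (a core bound by the myeloid factor PU.1), TATAAA (the TATA box), GGGCGG (the GC box) or GGNNTTTCC (an NF-kB type motif).
Ccr2 (chr9:124101933-124102182, plus strand): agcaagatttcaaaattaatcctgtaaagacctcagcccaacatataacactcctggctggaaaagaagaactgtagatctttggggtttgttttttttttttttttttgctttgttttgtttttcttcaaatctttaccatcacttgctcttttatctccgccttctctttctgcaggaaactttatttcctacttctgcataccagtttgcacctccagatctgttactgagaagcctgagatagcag
Cx3cr1 (chr9:120068297-120068546, minus strand): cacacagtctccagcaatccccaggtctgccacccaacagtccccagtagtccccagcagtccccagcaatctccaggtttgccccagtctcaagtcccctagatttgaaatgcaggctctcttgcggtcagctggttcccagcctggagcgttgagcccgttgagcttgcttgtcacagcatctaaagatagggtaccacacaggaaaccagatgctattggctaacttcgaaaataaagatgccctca
Cxcr1 (chr1:74194632-74194881, minus strand): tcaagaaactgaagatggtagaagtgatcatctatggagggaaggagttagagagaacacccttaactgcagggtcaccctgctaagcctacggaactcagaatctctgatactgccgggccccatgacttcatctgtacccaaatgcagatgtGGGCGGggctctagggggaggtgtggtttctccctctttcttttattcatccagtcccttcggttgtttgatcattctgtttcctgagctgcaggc
Cxcr4 (chr1:128592300-128592549, minus strand): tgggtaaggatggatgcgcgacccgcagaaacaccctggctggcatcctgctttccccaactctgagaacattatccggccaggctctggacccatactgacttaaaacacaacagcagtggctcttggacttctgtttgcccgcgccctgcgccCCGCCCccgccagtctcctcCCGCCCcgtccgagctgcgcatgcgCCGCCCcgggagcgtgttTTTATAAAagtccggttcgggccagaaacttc
Ccrl2 (chr9:111057519-111057768, minus strand): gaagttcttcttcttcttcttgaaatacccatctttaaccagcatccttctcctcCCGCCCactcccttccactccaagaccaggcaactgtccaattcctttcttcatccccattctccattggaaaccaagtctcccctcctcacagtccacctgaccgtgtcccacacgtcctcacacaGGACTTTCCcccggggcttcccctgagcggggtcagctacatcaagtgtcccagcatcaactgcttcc
The monocyte receptors Ccr2 and Cx3cr1 had no match to any of the 4 motifs in this window. For Ccr2 the RefSeq start lies inside the file's interval. Most of its window (from chr9:124101933) therefore falls within that interval (from chr9:124101950) and not before it. Cxcr4 held 3 GC boxes and a TATA box read on both strands (the 2 reads overlap), Cxcr1 held 1 GC box, and Ccrl2 held 1 GC box and 1 NF-kB type motif. Of 27025 mouse promoters of the same length, 32.9% held the GC box, 12.97% the TATA box, 23.1% GAGGAA and 4.84% the NF-kB type motif. Ccr1 and Cxcr2, not shown, each held 1 GAGGAA. A match is a description of the letters and not a bound site.

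Receptor transcripts separated the cell types. Ccr2, Cx3cr1 and Cxcr4 were lower in AΦ than in monocytes, and Cxcr1 was higher, at 4-weeks and in both origins at 32-weeks. In the limma fit across all genes on log2(FPKM + 1), 4 of the 7 members passed at 4-weeks (Benjamini-Hochberg adjusted p under 0.05) against 48.2% of all genes tested. At 32-weeks 6 of 7 passed in MF2 against Mono2 (47.3% of all genes) and 6 of 7 in MF1 against Mono1 (50.9%). The share at 4-weeks was thus near that of all genes. Of the 32-week calls, those of Ccr1 and Ccrl2 were lost in some refits, as given below. Libraries of the cell types overlapped for Ccr1 and Ccrl2 in all 3 comparisons and for Cxcr1 in MF2 against Mono2. The libraries of the cell types came from the same mice within an exposure and time point by the study's methods, which do not say whether equal replicate numbers mark a mouse, and the fit and the permutation test treat all libraries as independent.

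**Figure D1:**
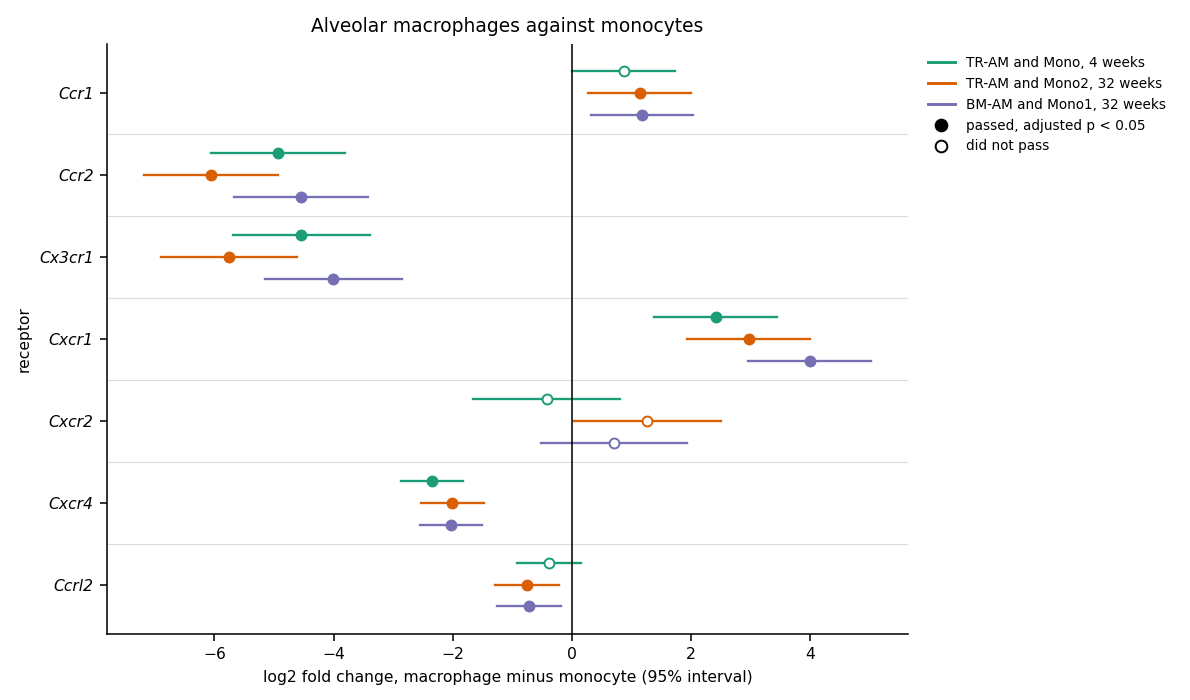
Log2 fold change (log2(FPKM + 1) scale, macrophage minus monocyte) of the 7 receptors at 4-weeks and in CD45.2 and CD45.1 cells at 32-weeks, with limma 95% intervals and filled points where the adjusted p was under 0.05. Ccr2 and Cx3cr1 lie far to the left (-6.06 to -4.00), Cxcr4 at -2.35 to -2.00, Cxcr1 to the right (2.42 to 4.00), Ccr1 at 0.87 to 1.18, Cxcr2 at -0.42 to 1.27 and Ccrl2 at -0.75 to -0.38.

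Among the inflammatory CC receptors, Ccr1 was steady in AΦ and variable in monocytes. In TR-AΦ at 4-weeks Ccr1 measured 73.9, 100.3 and 84.1 FPKM under FA (replicates 0, 1 and 2, the order used throughout) and 76.7, 91 and 103 under PM. At 32-weeks it measured 70.9, 93.3 and 74.6 FPKM under FA and 75.3, 102 and 88.7 under PM in TR-AΦ. In BM-AΦ it measured 82.3, 104 and 96.5 FPKM under FA and 88.5, 94.9 and 94.3 under PM. All 18 AΦ libraries thus fell between 70.9 and 104 FPKM, with a coefficient of variation of 12.4%. Monocytes at 4-weeks gave 16.4, 26.1 and 33.9 FPKM under FA and 85, 145 and 61.2 under PM. In Mono2 the values were 51, 22.1 and 135 FPKM under FA and 21.8, 28.2 and 28.3 under PM. In Mono1 they were 12.6, 171 and 144 FPKM under FA and 19.1, 26.4 and 27.1 under PM. The monocyte range of 12.6 to 171 FPKM covered the whole AΦ range, with a coefficient of variation of 90.4%. Ccr1 passed as higher in AΦ at 32-weeks in CD45.2 cells (log2 fold change 1.14, SE 0.42, limma adjusted p = 0.0266) and in CD45.1 cells (1.18, SE 0.42, limma adjusted p = 0.0209), although the libraries of the cell types overlapped in both. Leaving out Mono1 FA replicate 0, the lowest Ccr1 library, cut the CD45.1 change to 0.59 (limma adjusted p = 0.090), and 4 single libraries (MF2 FA and PM replicate 1, Mono2 FA replicate 1 and Mono2 PM replicate 0) each ended the CD45.2 call. The CD45.1 call was also lost when only the compared groups were fitted (limma adjusted p = 0.0903) and with exposure and replicate number as a block (0.0701). At 4-weeks Ccr1 did not pass (0.87, limma adjusted p = 0.0896), but it did so in those same fits (0.0111 and 0.0164).

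The spread of Ccr1 among monocytes moved with markers of classical monocytes. The 5 monocyte libraries with the highest Ccr1 (85.0 to 171 FPKM) were the 5 with the highest summed FPKM of Ly6c2, Vcan and F13a1 (733 FPKM or more), and the remaining 13 had Ccr1 at 61.2 FPKM or less and sums of 296 to 635 FPKM. For Ccr2, 3 of its 5 highest monocyte libraries were among the 5 highest in the same sum. Ly6c2, Vcan and F13a1 were taken from the monocyte list after their values were seen. Both overlaps are given without a test, and the part of subset composition in Ccr1 was not tested. The sort gate was CD64 low, CD11b high, MHC II negative and Ly6G negative, without a split by Ly6C.

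**Figure D2:**
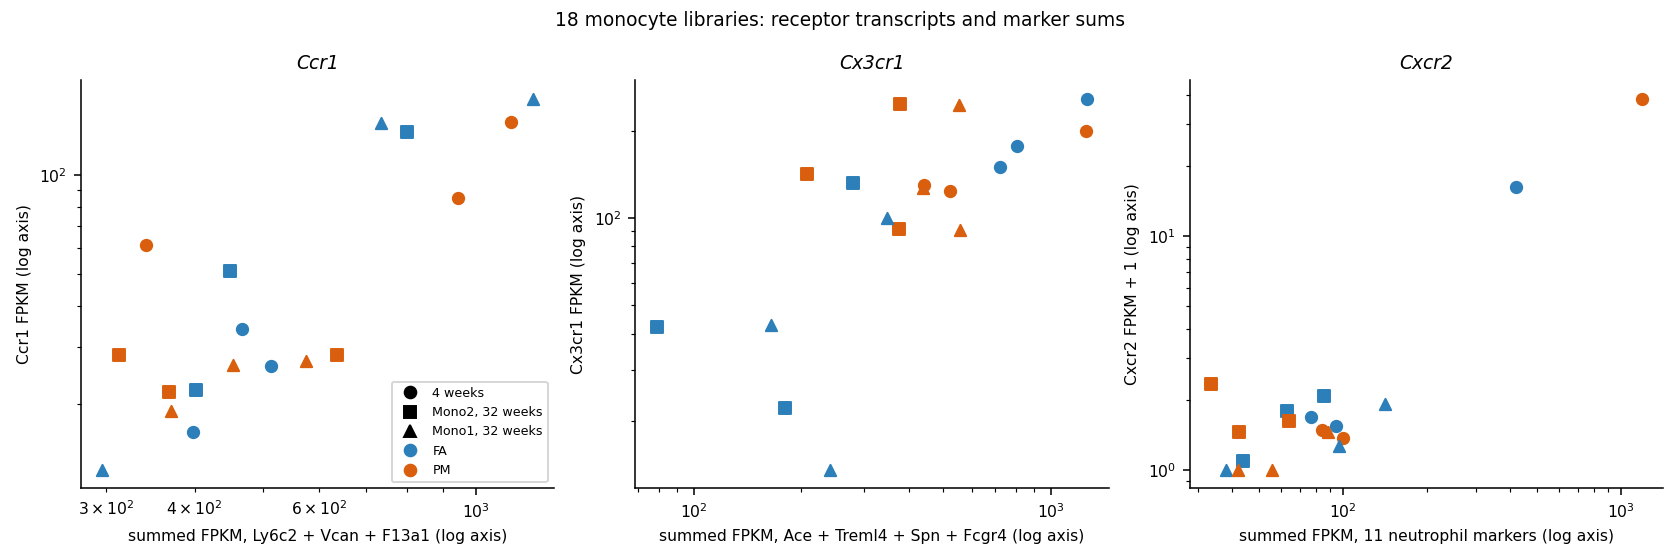
FPKM of Ccr1, Cx3cr1 and Cxcr2 (vertical, log axes, Cxcr2 as FPKM + 1) against summed FPKM of classical, non-classical and neutrophil markers (horizontal, log axes) in 18 monocyte libraries, with colour for exposure and symbol for time and origin. The 5 libraries highest in Ccr1 are the 5 with a classical sum of at least 733, and the only libraries with Cxcr2 above 2 FPKM have neutrophil sums of 418 and 1185.

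Ccr2, through which monocytes exit the marrow, was lower in AΦ in all 3 comparisons. In TR-AΦ at 4-weeks Ccr2 measured 3.67, 6.44 and 31.6 FPKM under FA and 5.02, 4.45 and 34.3 under PM. At 32-weeks it was 2.17, 2.09 and 3.99 FPKM under FA and 2.55, 3.67 and 6.01 under PM in TR-AΦ. In BM-AΦ it was 22.2, 6.2 and 14.3 FPKM under FA and 10.8, 11.6 and 36.8 under PM. Within AΦ the lowest values were those of 32-week TR-AΦ, and replicate 2 stood above replicates 0 and 1 at 4-weeks in both exposures. Monocytes gave 199.6, 308 and 279 FPKM under FA and 535, 659.8 and 171 under PM at 4-weeks. Mono2 gave 175, 339 and 217 FPKM under FA and 159, 258 and 938 under PM. Mono1 gave 242, 664 and 269 FPKM under FA and 160.0, 401 and 842 under PM. The lowest monocyte library (159 FPKM) lay above the highest AΦ library (36.8 FPKM). The fitted level was 30.5-fold lower in AΦ at 4-weeks (log2 fold change -4.93, SE 0.55, limma adjusted p = 1.87e-08). It was 66.9-fold lower in MF2 than in Mono2 at 32-weeks (-6.06, SE 0.55, limma adjusted p = 4.70e-10) and 23.4-fold lower in MF1 than in Mono1 (-4.55, SE 0.55, limma adjusted p = 8.51e-08). For each of these 3 comparisons the exact two-sided permutation p was 0.00216 with 6 libraries a side, the smallest that design can give.

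The 4-week AΦ libraries numbered 2, which held the high Ccr2 and Cx3cr1, also held more transcripts of other myeloid cells. Their summed FPKM over 12 monocyte markers was 539 and 589, against 233 to 359 in the other 4-week AΦ libraries, and Ly6c2 was 16.5 and 4.78 FPKM against 0 in the others. Their sums over 6 interstitial macrophage markers were 165 and 492 FPKM against 36.4 to 92.1. Without the replicate 2 libraries of all 4-week groups, an alternative added after these values were seen, Ccr2 and Cx3cr1 were still lower in AΦ, with log2 fold changes of -6.05 and -5.16.

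Cx3cr1, the receptor of patrolling monocytes, had the same direction. In TR-AΦ at 4-weeks Cx3cr1 measured 5.21, 2.11 and 18.8 FPKM under FA and 4.33, 1.65 and 25.5 under PM. At 32-weeks it was 0.444, 0.137 and 0.557 FPKM under FA and 0.502, 0.71 and 1.63 under PM in TR-AΦ. In BM-AΦ it was 8.57, 0.7 and 1.77 FPKM under FA and 3.25, 3.93 and 10.7 under PM. Thus 5 of the 6 TR-AΦ libraries at 32-weeks were under 1 FPKM. Monocytes gave 150.4, 177 and 257 FPKM under FA and 129.8, 124 and 199.7 under PM at 4-weeks. Mono2 gave 42.2, 132 and 22.2 FPKM under FA and 91.7, 142 and 248 under PM. Mono1 gave 100.3, 42.8 and 13.6 FPKM under FA and 91.1, 127 and 245 under PM. Within each of the 3 comparisons no AΦ library reached a monocyte library, although the lowest monocyte library overall (13.6 FPKM) lay below the highest AΦ library (25.5 FPKM). The log2 fold change was -4.54 at 4-weeks (SE 0.56, limma adjusted p = 1.13e-07), -5.76 in CD45.2 cells at 32-weeks (SE 0.56, limma adjusted p = 1.81e-09) and -4.00 in CD45.1 cells (SE 0.56, limma adjusted p = 9.46e-07). The 4 lowest monocyte libraries were FA libraries of 32-weeks (13.6 to 42.8 FPKM), and 3 of them were also among the 5 highest in Ccr1. Over the 18 monocyte libraries the summed FPKM of Ace, Treml4, Spn and Fcgr4, markers of non-classical monocytes, ranged from 78.8 to 1265. Of the 5 libraries highest in Cx3cr1, 3 were among the 5 highest in that sum. These markers were picked from the monocyte list in the same way as the classical ones, and Nr4a1 of that list was left out.

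Cxcr1 was the receptor with the opposite pattern. In TR-AΦ it measured 4.02, 2.13 and 18.1 FPKM under FA and 3.66, 4.05 and 6.07 under PM at 4-weeks. At 32-weeks TR-AΦ gave 12.2, 5.3 and 17.3 FPKM under FA and 19.1, 31 and 36 under PM. BM-AΦ gave 10.1, 7.04 and 33.6 FPKM under FA and 7.54, 34.5 and 49 under PM. Every AΦ library held at least 2.13 FPKM. Monocytes at 4-weeks were listed at 0 in all 3 FA libraries and at 0, 0 and 1.12 FPKM under PM. Mono2 gave 0.917, 0.885 and 0 FPKM under FA and 0.337, 13.2 and 1.25 under PM. Mono1 gave 0, 0.337 and 0 FPKM under FA and 0, 0.436 and 0.486 under PM. Thus 9 of 18 monocyte libraries were at 0 and 15 were under 1 FPKM. The one high monocyte library, Mono2 PM replicate 1, was the library with the highest sum of alveolar macrophage markers (1726 FPKM). The log2 fold change, AΦ minus monocyte, was 2.42 at 4-weeks (SE 0.50, limma adjusted p = 0.000226), 2.97 in CD45.2 cells at 32-weeks (SE 0.50, limma adjusted p = 1.77e-05) and 4.00 in CD45.1 cells (SE 0.50, limma adjusted p = 1.83e-07). Without Mono2 PM replicate 1 the CD45.2 change was 3.48. Because of the added 1 FPKM these values understate the change of a gene near 0 in monocytes, and no fold is given. In the monocyte model Cxcr1 passed the filter of a mean of at least 1 FPKM only through that library (mean 1.05 FPKM with it and 0.339 without).

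Cxcr2, the neighbour of Cxcr1 and the main receptor of neutrophil-attracting chemokines in mouse, was low in nearly every library. In TR-AΦ it measured 0.475, 1.15 and 3.83 FPKM under FA and 1.57, 1.79 and 4.13 under PM at 4-weeks. At 32-weeks TR-AΦ gave 3.32, 1.47 and 4.4 FPKM under FA and 2.53, 2.52 and 5.13 under PM. BM-AΦ gave 0.37, 0.893 and 2.01 FPKM under FA and 1.16, 0.884 and 1.1 under PM. No AΦ library passed 5.13 FPKM. Monocytes gave 0.539, 0.685 and 15.1 FPKM under FA and 0.475, 0.368 and 37.6 under PM at 4-weeks. Mono2 gave 0.792, 0.0873 and 1.08 FPKM under FA and 0.454, 1.34 and 0.62 under PM. Mono1 gave 0, 0.917 and 0.264 FPKM under FA and 0, 0 and 0.446 under PM. The 2 monocyte libraries with high Cxcr2, replicate 2 of FA and of PM at 4-weeks, were those with neutrophil marker sums of 418 and 1185 FPKM, led by S100a9 at 248 and 792 FPKM. The other 16 monocyte libraries had at most 1.34 FPKM of Cxcr2. In the monocyte model Cxcr2 passed the filter of a mean of at least 1 FPKM only through the replicate 2 libraries of 4-weeks. Its mean was 3.38 FPKM with them and 0.504 without. The part of neutrophil RNA in Cxcr2 was not tested. Cxcr2 did not pass in any of the 3 cell type comparisons. In CD45.2 cells at 32-weeks the 6 AΦ libraries (1.47 to 5.13 FPKM) lay above the 6 monocyte libraries (0.0873 to 1.34 FPKM), with a log2 difference of 1.27 (SE 0.60, limma adjusted p = 0.084). This difference passed when only the compared groups were fitted (limma adjusted p = 0.0034) and with exposure and replicate number as a block (0.0042).

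Cxcr4, the receptor that retains cells in marrow and tissue, was the most abundant member in monocytes by FPKM, which corrects for transcript length. In TR-AΦ it measured 70.3, 97.1 and 142 FPKM under FA and 62.9, 72.3 and 189 under PM at 4-weeks. At 32-weeks TR-AΦ gave 163, 103 and 154 FPKM under FA and 97.3, 106 and 110.5 under PM. BM-AΦ gave 169.9, 91.4 and 128 FPKM under FA and 109, 100.2 and 85.3 under PM. The highest AΦ library was again a replicate 2 at 4-weeks, that of PM. Monocytes gave 492, 555 and 627 FPKM under FA and 379.6, 339.6 and 705 under PM at 4-weeks. Mono2 gave 338, 705 and 587 FPKM under FA and 472, 519.5 and 368 under PM. Mono1 gave 599.9, 312 and 537 FPKM under FA and 533, 484 and 346 under PM. The lowest monocyte library (312 FPKM) was above the highest AΦ library (189 FPKM). AΦ were 5.10-fold lower at 4-weeks (log2 fold change -2.35, SE 0.25, limma adjusted p = 1.22e-08), 4.01-fold lower in CD45.2 cells at 32-weeks (-2.00, SE 0.25, limma adjusted p = 2.27e-07) and 4.09-fold lower in CD45.1 cells (-2.03, SE 0.25, limma adjusted p = 1.73e-07).

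Ccrl2, the atypical chemerin-binding receptor, was the most abundant member in AΦ at 4-weeks and its libraries did not overlap between the time points in either cell type. In TR-AΦ it measured 441, 436 and 383 FPKM under FA and 301, 285 and 439 under PM at 4-weeks. At 32-weeks TR-AΦ gave 52.5, 66.6 and 138 FPKM under FA and 36.7, 80.2 and 51.1 under PM. BM-AΦ gave 81.9, 63.4 and 126 FPKM under FA and 45.2, 102 and 59.9 under PM. The lowest 4-week AΦ library was above the highest 32-week one. Monocytes gave 574, 560.4 and 546 FPKM under FA and 376, 383 and 546 under PM at 4-weeks. Mono2 gave 125, 137 and 113 FPKM under FA and 107, 142 and 58.7 under PM. Mono1 gave 141, 179 and 129 FPKM under FA and 116, 159.6 and 63.1 under PM. Between cell types Ccrl2 passed at 32-weeks only, as lower in AΦ in CD45.2 cells (log2 fold change -0.75, SE 0.26, limma adjusted p = 0.0194) and in CD45.1 cells (-0.72, SE 0.26, limma adjusted p = 0.0225), with overlapping libraries. At 4-weeks the difference did not pass, and the test of whether the cell type difference changed with time gave -0.37 (95% interval -1.13 to 0.39, limma adjusted p = 0.64). Leaving out MF2 FA replicate 0, MF2 PM replicate 0 or Mono2 PM replicate 1 ended the CD45.2 call, and leaving out MF1 FA replicate 1, MF1 PM replicate 0, Mono1 FA replicate 1 or Mono1 PM replicate 1 ended the CD45.1 call. With only the compared groups both calls were lost (limma adjusted p = 0.0635 and 0.0516), and with exposure and replicate number as a block that in CD45.2 cells was lost (0.0585) while the difference at 4-weeks passed (-0.38, limma adjusted p = 0.0151).

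**Figure D3:**
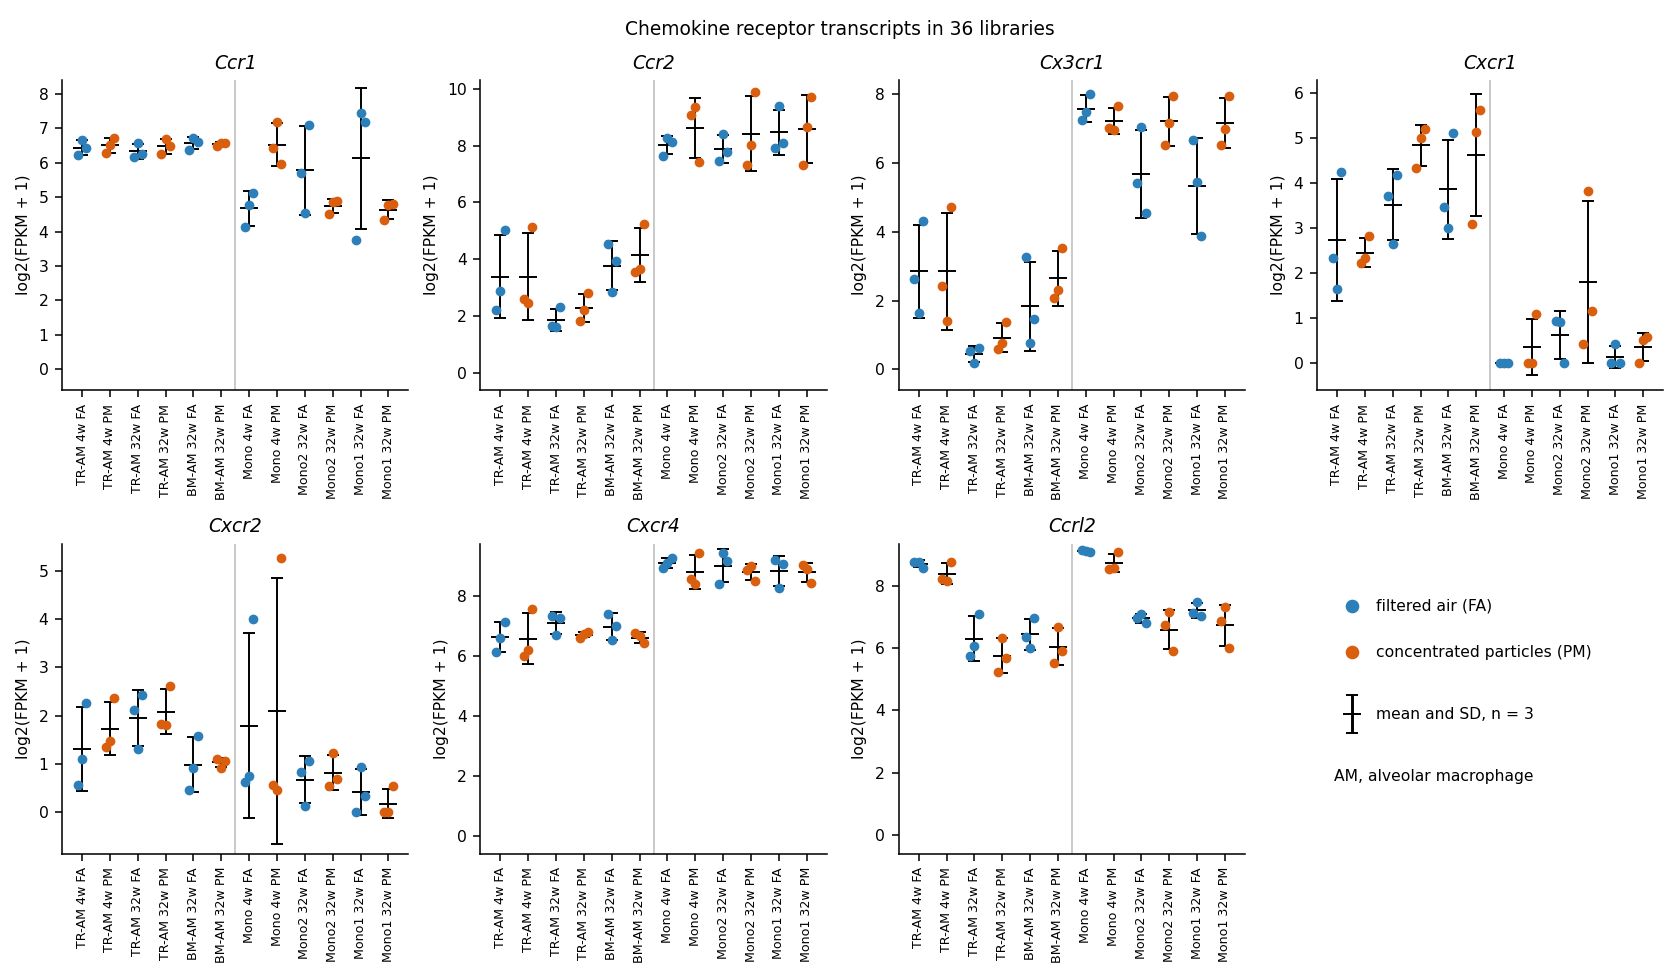
Log2(FPKM + 1) of the 7 receptors in each of the 36 libraries by group (points, blue for FA and orange for PM), with the mean and SD of each group of 3 and a grey line between macrophages and monocytes. Ccr2, Cx3cr1 and Cxcr4 are high to the right of the line, Cxcr1 to the left, and Ccrl2 is high at 4-weeks in both cell types.

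Ordering the 12 groups of each member by mean FPKM, neighbouring groups mostly overlapped. Of 11 neighbouring pairs for each member, 10 overlapped for Ccr2, Cxcr1 and Cxcr4, 9 for Ccrl2, and all 11 for Ccr1, Cx3cr1 and Cxcr2. The Ccrl2 order ran from 560.0 ± 14 FPKM (SD, n = 3) in FA monocytes at 4-weeks to 56 ± 22.2 FPKM in PM TR-AΦ at 32-weeks.

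Time was compared in CD45.2 cells, where both time points exist. Ccrl2 was the only member that passed, and it fell in both cell types and both exposures. In TR-AΦ under FA the fitted level was 5.29-fold lower at 32-weeks than at 4-weeks (log2 fold change -2.40, SE 0.39, limma adjusted p = 0.0080), 1 of 7 members against 0.782% of all genes. Under PM it was 6.20-fold lower (-2.63, SE 0.39, limma adjusted p = 0.0040), 1 of 7 against 1.05%. In monocytes under FA it was 4.47-fold lower (-2.16, SE 0.33, limma adjusted p = 0.0028), 1 of 7 against 7.21%. Under PM it was 4.41-fold lower (-2.14, SE 0.33, limma adjusted p = 0.0059), 1 of 7 against 2.42%. The 3 libraries at 32-weeks lay below the 3 at 4-weeks in each of these comparisons, for which the exact two-sided permutation p was 0.1, the smallest that 3 against 3 can give. Fitting only the compared groups moved the adjusted p above 0.05 in 3 of the 4 comparisons (0.105, 0.070 and 0.133, all but monocytes under FA), and leaving out MF2 FA replicate 0 gave -2.12 with limma adjusted p = 0.0504. With the replicate number as a block none of the 4 passed (limma adjusted p of 0.0553 to 0.295). Markers of other cells differed between the time points too. In CD45.2 monocytes the interstitial macrophage sum was 105 to 487 FPKM at 4-weeks and 752 to 2826 FPKM at 32-weeks, and the monocyte marker sum was 3471 to 4599 and 1360 to 2737 FPKM. In TR-AΦ the interstitial macrophage sum was 36.4 to 492 and 20.1 to 59.9 FPKM. Their part in Ccrl2 was not tested. Exposure length, age and any other difference between the sets of mice at the time points cannot be told apart.

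**Figure D4:**
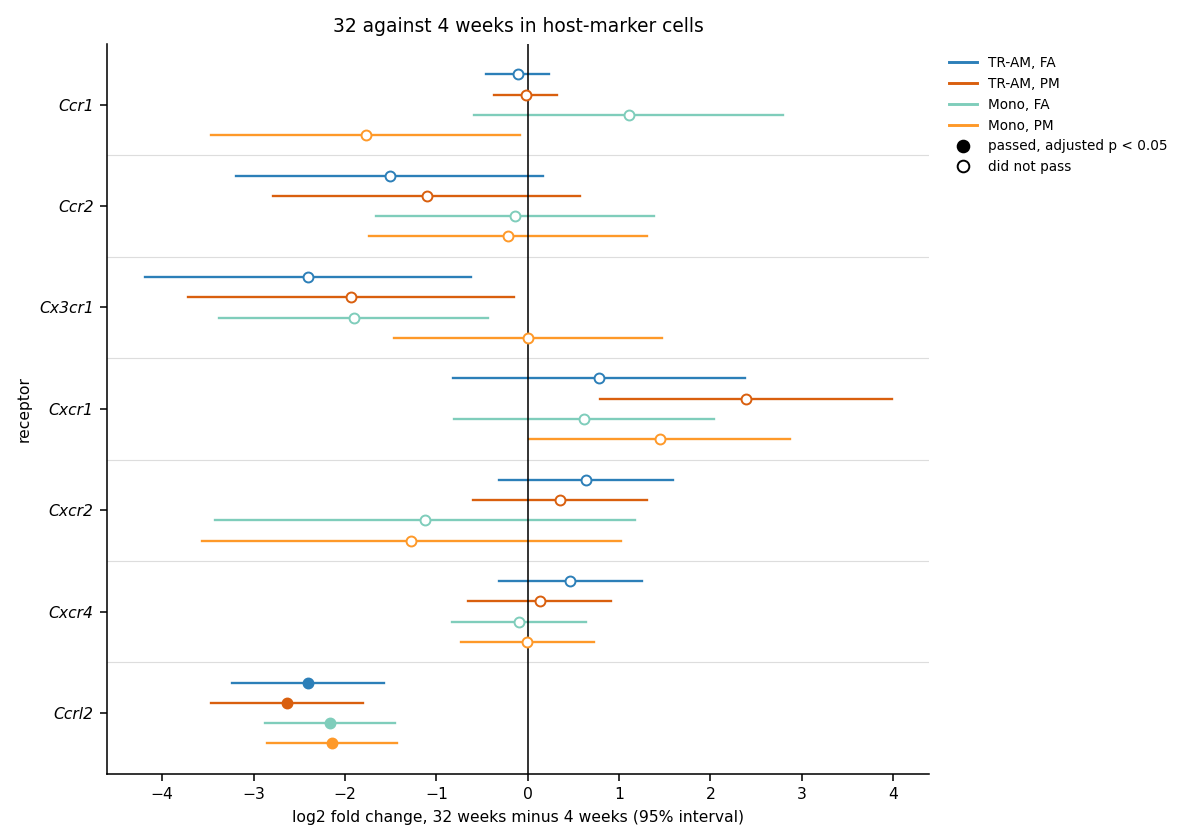
Log2 fold change (log2(FPKM + 1) scale, 32-weeks minus 4-weeks) of the 7 receptors in CD45.2 macrophages and monocytes under FA and PM, with limma 95% intervals and filled points where the adjusted p was under 0.05. Ccrl2 alone is filled, at -2.63 to -2.14 in all 4 comparisons.

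Differences of other members with time did not pass. Cx3cr1 in TR-AΦ was lower at 32-weeks with no overlap under FA (log2 difference -2.41, 95% interval -4.19 to -0.63, limma adjusted p = 0.24) and under PM (-1.93, 95% interval -3.71 to -0.15, limma adjusted p = 0.28). Cxcr1 in TR-AΦ under PM was higher at 32-weeks with no overlap (2.39, 95% interval 0.79 to 3.98, limma adjusted p = 0.14). In monocytes Cx3cr1 under FA was at -1.91 (95% interval -3.38 to -0.44, limma adjusted p = 0.12) and Ccr1 under PM at -1.77 (95% interval -3.46 to -0.082, limma adjusted p = 0.28). No member passed the test of a difference between cell types in the change with time, where 7.88% of genes did. An unadjusted limma p under 0.05 was found for 0 of 7 members and 20.3% of all genes.

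Origin was compared within cell types at 32-weeks. By the study's methods CD45.1 and CD45.2 cells came from the same mice within an exposure. The fit and the permutation test treat their libraries as independent. No member passed between BM-AΦ and TR-AΦ (0 of 7 against 0.316% of all genes). An unadjusted limma p under 0.05 was found for 3 of 7 members and 7.45% of all genes. Ccr2 had no overlap, with 6.20 to 36.8 FPKM in 6 BM-AΦ libraries and 2.09 to 6.01 FPKM in 6 TR-AΦ libraries. The log2 difference was 1.89 (95% interval 0.70 to 3.07, limma adjusted p = 0.26), and the exact two-sided permutation p of this single gene was 0.00216, unadjusted. Cx3cr1 was 0.700 to 10.7 FPKM in BM-AΦ and 0.137 to 1.63 FPKM in TR-AΦ (log2 difference 1.55, limma adjusted p = 0.49). Cxcr2 was lower in BM-AΦ, at 0.370 to 2.01 FPKM against 1.47 to 5.13 FPKM (log2 difference -1.01, limma adjusted p = 0.31). In the same libraries the interstitial macrophage sum was 35.2 to 252 FPKM in BM-AΦ and 20.1 to 59.9 FPKM in TR-AΦ, the dendritic cell sum was 5.54 to 19.6 and 1.46 to 4.74 FPKM, and Ly6c2 did not exceed 2.14 FPKM, so other myeloid transcripts differed alongside Ccr2, and their part was not tested. The AΦ gate was CD64 positive, CD11c high and CD11b low, and the study placed interstitial macrophages in a CD11c low, CD11b high gate. Between Mono1 and Mono2 no member passed (0 of 7 against 0.669%), and 0 of 7 had an unadjusted limma p under 0.05, against 9.59% of all genes. Ccr2 differed by 0.37 between Mono1 and Mono2 (95% interval -0.70 to 1.44). The test of whether the origin difference differed between cell types gave 1.52 for Ccr2 (95% interval -0.074 to 3.10, limma adjusted p = 0.53) and 1.76 for Cx3cr1 (95% interval 0.14 to 3.38, limma adjusted p = 0.42). In that test 0 of 7 members and 1.08% of genes passed. Its unadjusted limma p was under 0.05 for 1 of 7 members and 10.3% of all genes. For Cxcr4, which lies 9.47 Mb from Ptprc on the same chromosome, the intervals were -0.66 to 0.44 in AΦ and -0.60 to 0.43 in monocytes.

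In the limma fit, exposure to PM2.5 changed no member past the threshold in any of 6 comparisons. Limma calls over all genes were few too. They were 0.0079% in TR-AΦ at 4-weeks, and 0% in TR-AΦ and 0.0158% in BM-AΦ at 32-weeks. In monocytes they were 0.00778% at 4-weeks, and 0% in Mono2 and 0% in Mono1. The study tested pairs of groups with Cuffdiff of the Cufflinks package (q-value under 0.05) and called many more genes in AΦ under PM. Over the 42 tests of a member, limma gave an unadjusted p under 0.05 in 3, all in monocytes. Those of Cx3cr1 in Mono2 and Mono1 came from the same mice. Among all genes 2.05% to 4.74% had an unadjusted limma p under 0.05.

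**Figure D5:**
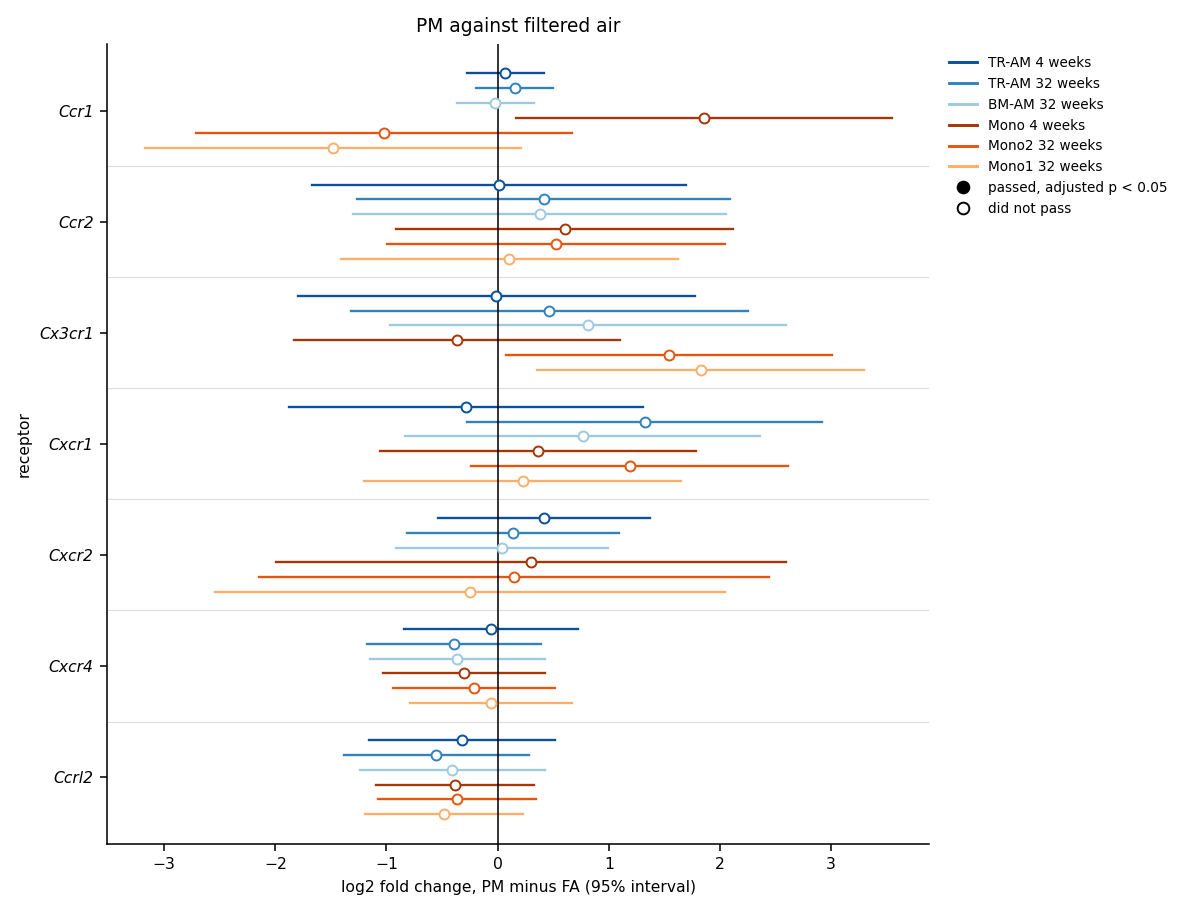
Log2 fold change (log2(FPKM + 1) scale, PM minus FA) of the 7 receptors in the 6 cell populations, with limma 95% intervals. No point is filled, and only Ccr1 in 4-week monocytes and Cx3cr1 in Mono2 and Mono1 at 32-weeks have intervals that leave out 0.

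Ccr1 was higher under PM in monocytes at 4-weeks, 97.1 ± 43.2 FPKM against 25.5 ± 8.77 (SD, n = 3), and the 3 PM libraries lay above the 3 FA libraries. The log2 difference was 1.85 (95% interval 0.16 to 3.55), with limma adjusted p = 1 and an exact two-sided permutation p of 0.1, the smallest possible. The classical marker sum was 945 and 1122 FPKM in PM replicates 0 and 1 and 341 in replicate 2, against 398 to 513 in FA. At 32-weeks the Ccr1 difference lay on the other side, at -1.02 in Mono2 (95% interval -2.71 to 0.67) and -1.48 in Mono1 (95% interval -3.18 to 0.21), with overlapping libraries. Whether the exposure difference changed with time in monocytes was not tested.

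Cx3cr1 in 32-week monocytes was 160.4 ± 79.9 FPKM under PM and 65.4 ± 58.4 under FA in Mono2 (log2 difference 1.54, 95% interval 0.073 to 3.01, limma adjusted p = 1). In Mono1 it was 154 ± 80.6 FPKM under PM and 52.2 ± 44.1 under FA (1.83, 95% interval 0.36 to 3.30, limma adjusted p = 0.95). The libraries overlapped in both. Mono1 and Mono2 came from the same mice by the study's methods, so these comparisons are not independent of each other. The non-classical marker sum ran from 375 to 558 FPKM in 5 of the 6 PM libraries and was 208 in the sixth, against 78.8 to 349 FPKM in the 6 FA libraries, and its part in Cx3cr1 was not tested.

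In TR-AΦ at 32-weeks Cxcr1 was 28.7 ± 8.65 FPKM under PM and 11.6 ± 6.04 under FA, with no overlap (log2 difference 1.32, 95% interval -0.27 to 2.92, limma adjusted p = 1, exact two-sided permutation p = 0.1). In BM-AΦ the Cxcr1 difference was 0.76 (95% interval -0.83 to 2.36) and the libraries overlapped. The study, by Cuffdiff, reported CXCR1 as upregulated by PM in both TR-AΦ and BM-AΦ at 32-weeks, a call that the limma fit did not make. The test of the exposure difference between origins gave -0.56 for Cxcr1 (95% interval -2.81 to 1.70), and between time points in TR-AΦ 1.61 (95% interval -0.65 to 3.86). In these tests 0 of 7 members passed, against 0.0158% and 0.0079% of genes. An unadjusted limma p under 0.05 was found for 0 of 7 members in each, against 1.89% and 3% of all genes. Ccrl2 in 4-week monocytes was lower under PM, 435 ± 96.1 against 560.0 ± 14 FPKM, with no overlap (log2 difference -0.39, 95% interval -1.10 to 0.32, limma adjusted p = 1). Its log2 difference was below 0 in the other 5 comparisons too, and every interval held 0. The narrowest intervals were those of Ccr1 in AΦ, which ran from -0.37 to 0.50 over the 3 AΦ comparisons. The interval of Cxcr2 in monocytes ran from -2.54 to 2.59 over 3 comparisons, too wide to tell a change from none. Cxcr2 was tested in monocytes only because the 4-week replicate 2 libraries lifted its mean past the filter.

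Genes with the most similar profile were named by Pearson r of log2(FPKM + 1) over the 36 libraries, which share cell type, time point and mice, so r is a description. For Ccr2 they were Slfn5 (0.986), Eif4e3 (0.976) and Ifi203 (0.976), and for Cx3cr1 Ighm (0.974), Pou2f2 (0.974) and Susd3 (0.968). For Cxcr4 they were Zbtb16 (0.956), Lats2 (0.955) and Arl4c (0.952), and for Cxcr1 Cd200 (0.948), Slc39a2 (0.936) and Gm6166 (0.932). All of these follow the split between AΦ and monocytes. For Ccrl2 they were Tnfaip3 (0.932), Nfkbia (0.908) and Nlrp3 (0.905), which encode a deubiquitinase, the inhibitor of NF-kB and an inflammasome sensor. For Ccr1 they were Mmp19 (0.857), Fam217b (0.836) and Fbxl5 (0.830), and for Cxcr2 Slc40a1 (0.837), Tgoln1 (0.798) and Dnaja2 (0.783). Between members, r of Ccr2 with Cx3cr1 was 0.936 over 36 libraries, 0.867 over the 18 AΦ and 0.284 over the 18 monocyte libraries. The pair with the next highest r over 36 libraries was Ccr2 with Cxcr4 (0.871), which was 0.350 within AΦ and -0.613 within monocytes.

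The rest of the receptor family was mostly low. Of 17 other receptors in the list, 14 had a mean under 1 FPKM over the 36 libraries. Ccr7, which guides cells to lymph nodes, was lower in AΦ at 4-weeks (1.59 against 9.88 FPKM, log2 fold change -1.93), and so was Cmklr1, the signalling receptor of chemerin that Ccrl2 presents (4.21 against 18.1 FPKM, -2.27). In MF2 against Mono2 both were lower as well, and in MF1 against Mono1 Cmklr1 was lower and Ccr7 did not pass. The call of Ccr7 at 4-weeks was lost with only the compared groups (limma adjusted p = 0.0525) and with exposure and replicate number as a block (0.136).

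Of 19 ligands of the members, 14 were tested between cell types, and at 4-weeks 5 were higher and 5 lower in AΦ, where 22.6% of all genes were higher and 25.5% lower. The largest were Cx3cl1 (13.3 against 0.351 FPKM, log2 fold change 3.42) and Cxcl3 (16.2 against 1.33 FPKM, 2.66) among those higher, and Ccl5 (3.47 against 49.2 FPKM, -3.52) and Ccl9 (52.3 against 294 FPKM, -2.68) among those lower. Without the replicate 2 libraries of the 4-week groups Cxcl3 did not pass (1.61, limma adjusted p = 0.0541). AΦ thus carried more transcript of Cx3cl1, and monocytes more of its receptor Cx3cr1. At 32-weeks 3 were higher and 8 lower in CD45.2 AΦ (23.6% and 23.7% of all genes), and 2 higher and 3 lower in CD45.1 AΦ (27.1% and 23.8%). Cxcl12, the ligand of Cxcr4, and Rarres2, which encodes chemerin, were at or under 1.73 and 1.16 FPKM in every library.

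Of 31 symbols listed for signalling below the receptors, 29 were in the file and 28 were tested. At 4-weeks 18 were lower and 3 higher in AΦ (25.5% and 22.6% of all genes), with a list median log2 difference of -0.60 against -0.02 over all genes. The largest falls were in Rgs18 (1.21 against 18.6 FPKM, log2 fold change -3.41), a regulator of G protein signalling, and Adrbk2 (10.0 against 87.7 FPKM, -2.96), a receptor kinase, and the largest rises in Plcb2 (14.8 against 5.92 FPKM, 1.19) and Plcb3 (6.44 against 3.42 FPKM, 0.79), phospholipases downstream of Gi-coupled receptors. At 32-weeks 14 were lower and 4 higher in CD45.2 AΦ (23.7% and 23.6% of all genes), and 15 lower and 6 higher in CD45.1 AΦ (23.8% and 27.1%). Under PM none of the 3 lists held a gene that passed in any of the 6 comparisons.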

How the data were processed

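RNA of sorted AΦ and monocytes was extracted with a micro kit, made into stranded libraries and sequenced. The authors trimmed reads with TrimGalore, aligned them with STAR to mm10 guided by GENCODE, and computed the deposited FPKM per gene with Cufflinks. Whether strand was used in counting is not given in the sources used here, and the file holds no read counts, so the depth of each library is unknown although the methods name a nominal one. Replicate numbers came from the sample titles (0, 1 and 2).

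The 7 members and all lists were chosen with earlier results of these data known. Values were tested as log2(FPKM + 1) with limma 3.58.1 (trend, R 4.3.3) over all genes averaging 1 FPKM or more across a model's libraries (18 AΦ, 18 monocyte or all 36), Benjamini-Hochberg adjusted per comparison (19 comparisons, threshold 0.05). The added 1 FPKM understates changes of low genes. Single members also received an exact two-sided permutation test. Every member is given in all libraries. A fold change is given where a member passed, and under PM also where PM and FA libraries did not overlap; other differences are given with their intervals. The genes most like a member are the 3 with the highest Pearson r over 36 libraries. From the other receptors each gene that passed at 4-weeks between cell types is named (1 is not reported here), and from the ligands and signalling genes the 2 with the largest change per direction. Whether replicates were separate mice is stated only by the study's methods. The alternatives were a pseudocount of 0.1, no filter, quantile normalization, only the compared groups, a replicate block and leaving out each library. The script was tested on simulated data.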

Additional observations from a re-analysis of the deposited data

How the results depend on the processing

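The number of receptors that passed stayed within 1.5 times of the reported one under quantile normalization, without the filter and with 0.1 as the pseudocount in all 19 comparisons, and under the 4-week groups without replicate 2 (an alternative chosen after seeing the data) in the 9 comparisons with 4-week libraries. Fitting only the compared groups left 0 members for 32 against 4-weeks in TR-AΦ under FA, in TR-AΦ under PM and in monocytes under PM (1 member, Ccrl2, each as reported), with fewer libraries behind each spread, and 4 instead of 6 members between CD45.1 AΦ and monocytes. Leaving out each library gave 0 to 1 members for TR-AΦ under FA and 1 to 2 for monocytes under FA. Of the 23 fold changes of receptors and 48 of genes from the lists that were refitted, none turned its direction under any of these alternatives.

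The block was fitted within the compared groups, and the cause of the changes under it was not tested. With the replicate number as a block, 0 members passed in the comparison of time in TR-AΦ under FA and under PM and in monocytes under FA and under PM, where libraries of the same number come from different mice. Between AΦ and monocytes, with exposure and number as the block, the calls of Ccr1 and Ccrl2 were gained at 4-weeks (6 members, 4 as reported). In CD45.2 cells Ccrl2 was lost and Cxcr2 gained (6 and 6), and in CD45.1 cells Ccr1 was lost (5 and 6). Same-numbered libraries of one exposure and time point deviated together only weakly over all genes (median r 0.037 over 42 pairs, -0.041 to 0.155). The main fits therefore did not pair the samples by number. So low an r over all genes cannot show that equal numbers mark different mice. Some transcripts did follow the number. The summed FPKM of red cell markers was 0 to 1.31 in the 4 libraries numbered 2 at 4-weeks and 17.7 to 85.7 in the 8 numbered 2 at 32-weeks. Over the replicates of PM, Cx3cr1 ran at 91.7, 142 and 248 FPKM in Mono2 and at 91.1, 127 and 245 FPKM in Mono1. Ccr2 ran at 159, 258 and 938 FPKM in Mono2 and at 160.0, 401 and 842 FPKM in Mono1. Ccrl2 ran at 107, 142 and 58.7 FPKM in Mono2 and at 116, 159.6 and 63.1 FPKM in Mono1. Under FA, Ccr2 and Ccrl2 kept the same order of replicates in Mono2 and Mono1, and Cx3cr1 did not. Whether these patterns come from shared mice was not tested.

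Groups of 3 limit every comparison of exposure and time. The file holds no read counts, so no floor was set for a gene listed at 0.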

Other observations

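Among receptors and ligands outside the 7 members, a few genes passed in the comparison of time, and those below are named because their values were seen. The neutrophil attractants Cxcl1 and Cxcl2 fell between 4-weeks and 32-weeks in TR-AΦ under both exposures, 2 of 12 tested ligands in each (0.782% and 1.05% of all genes passed), in the comparisons in which Ccrl2 fell. Cxcl1 went from a mean of 199 to 21.2 FPKM under FA (log2 fold change -3.62, SE 0.61, limma adjusted p = 0.0102) and from 169 to 9.43 FPKM under PM (-4.06, SE 0.61, limma adjusted p = 0.0043). Cxcl2 went from 803 to 189 FPKM under FA (-2.28, SE 0.43, limma adjusted p = 0.0215) and from 756 to 111 FPKM under PM (-2.73, SE 0.43, limma adjusted p = 0.0064). Under FA the call of Cxcl1 was lost without MF2 FA replicate 0 (-3.19, limma adjusted p = 0.0555), and that of Cxcl2 without any one of the 5 libraries MF FA replicates 0, 1 and 2 and MF2 FA replicates 0 and 1 (limma adjusted p of 0.0552 to 0.0931). With only the compared groups the calls of Cxcl1 were lost under FA (0.197) and PM (0.0574) and that of Cxcl2 under FA (0.247), and with the replicate number as a block all 4 were lost (0.106 to 0.319).

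In monocytes Cmklr1, the signalling chemerin receptor, rose with time under FA from 18.4 to 59.5 FPKM (log2 fold change 1.65, SE 0.27, limma adjusted p = 0.0038) and under PM from 17.9 to 57.3 FPKM (1.59, SE 0.27, limma adjusted p = 0.0094). Of the ligands, Pf4 rose under FA from 7.76 to 164 FPKM (4.37, SE 0.83, limma adjusted p = 0.0066) and under PM from 7.34 to 121 FPKM (4.27, SE 0.83, limma adjusted p = 0.0184). Under PM the calls of both were lost without Mono PM replicate 2 (limma adjusted p = 0.0588 and 0.0767), without Mono2 PM replicate 1 (0.0512 and 0.104) and with only the compared groups (0.162 for each), and with the block all 4 were lost (0.0579 to 0.295). Cxcl2 fell in monocytes under PM too, from 680 to 156 FPKM (-2.28, SE 0.48, limma adjusted p = 0.0268). Under FA Ccl7 (2.41 to 21.4 FPKM, limma adjusted p = 0.0162) and Cx3cl1 (0.466 to 3.21 FPKM, limma adjusted p = 0.0309) rose. These calls were lost with only the compared groups (0.162, 0.0909 and 0.186) and with the block (0.295, 0.0692 and 0.127). Of the 28 signalling genes tested, 7 fell and 1 rose in monocytes under FA, where 4.08% of all genes fell and 3.13% rose. Under PM 0 passed, against 2.42% of all genes. The interstitial macrophage sum of 105 to 487 FPKM in 4-week monocytes and 752 to 2826 FPKM in Mono2 moved with Cmklr1 and Pf4, and its part was not tested.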
